A study of Homo sapiens with 21 samples.

Results

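The 7 genes described here encode the receptors of the insulin-like growth factor (IGF) family, its fetal ligand and 3 proteins that bind the receptors inside the cell. They were taken by symbol from an RNA-seq table of 34021 genes, with no threshold on their values but with earlier results of these data known: IGF1R, INSR, IGF2R, IGF2, IRS1, IRS2 and GRB10. All 7 were found, and all 7 were among the 13775 genes tested. The cells were H1975, an established line from a human lung adenocarcinoma with mutant EGFR, labelled as kept for 8 days, in 3 groups of 3 libraries. A protocol shared by all samples of the series names 3 days of treatment instead, and which holds here is not settled. Osi_cIGF1R cells overexpressed cIGF1R, a circular RNA of IGF1R, and received 500 nM osimertinib, which inhibits mutant EGFR. Osi_Lin_EV cells carried EV and received 500 nM osimertinib plus 500 nM linsitinib, a kinase inhibitor of IGF1R and of the insulin receptor. DMSO_EV cells carried EV, which the labels do not spell out, and received vehicle. Cells with EV and osimertinib as the single drug were not analysed here. Against DMSO_EV cells, the effects of osimertinib and of the circular RNA on Osi_cIGF1R cells therefore cannot be told apart. Osi_cIGF1R and Osi_Lin_EV cells differ in both the circular RNA and linsitinib, and Osi_Lin_EV and DMSO_EV cells differ in both drugs. The effects within each of these pairs cannot be told apart either. All values come from 1 cell line. Nothing in the labels ties the 3 libraries of a group to separate cultures, and the p-values therefore rest on a spread between libraries that may be technical.

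IGF1R and INSR are receptor tyrosine kinases that can pair with each other. IGF1, IGF2 and insulin activate them, and the IRS docking proteins then carry the signal to PI3K, AKT and mTOR. IGF2R has no kinase: it carries IGF2 and proteins tagged with mannose 6-phosphate to the lysosome. Signalling through IGF1R is a known bypass by which lung tumour cells survive inhibition of EGFR, and linsitinib is aimed at it.

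The values are FPKM, counts of fragments scaled for the length of the gene and for the fragments sequenced in the library. The file names no unit, and FPKM was read from the values. Epithelial markers fitted the labelled cell type, with 10 of 10 at a mean of at least 1 FPKM in every group, led by KRT8 at 5654, 5224 and 4208 FPKM in Osi_cIGF1R, Osi_Lin_EV and DMSO_EV cells. Of other cell types, 1 or 2 of 8 alveolar markers reached that mean (AGER led, at 3.40, 5.88 and 5.74 FPKM in the same order), 1 of 5 fibroblast markers (COL1A1, 5.70, 3.35 and 3.58 FPKM), 1 or 2 of 7 leukocyte markers (led by CD14, 3.07, 1.42 and 1.60 FPKM), 0 or 1 of 4 endothelial markers (CDH5, 0.482, 0.114 and 3.37 FPKM) and 0 of 1 red cell marker. Columns totalled 338034 to 381311 FPKM in Osi_cIGF1R, 423319 to 432563 in Osi_Lin_EV and 429553 to 474156 in DMSO_EV. The mitochondrial share was 6.08% to 7.28% in Osi_cIGF1R, 20.4% to 25.6% in Osi_Lin_EV and 20.3% to 30.4% in DMSO_EV, and all 13 mitochondrial mRNAs were lower in Osi_cIGF1R cells than in either other group. Every call on the 7 genes was the same when totals were equalised without mitochondrial genes. RNA polymerase III transcripts summed to 25.9 to 67.7 FPKM in Osi_Lin_EV libraries. They summed to 72.4 FPKM in Osi_cIGF1R replicate 1, which was high only beside the 4.07 and 8.64 of its own group. In DMSO_EV replicate 2 they summed to 843, against 52.4 to 76.2 in the others of its group. Without those 2 libraries 7681, 6880 and 5843 genes passed the test, against 9499, 8356 and 7241 with them, in Osi_cIGF1R against DMSO_EV, Osi_cIGF1R against Osi_Lin_EV and Osi_Lin_EV against DMSO_EV cells.

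Between Osi_cIGF1R and DMSO_EV cells, 6 of the 7 genes passed the test (limma on log2 of FPKM + 1, Benjamini-Hochberg adjusted p under 0.05 over all genes tested). Of these, 5 were higher (IGF1R, INSR, IGF2R, IRS2 and GRB10) and IGF2 was lower, while 69.0% of all genes tested passed, 33.1% higher and 35.8% lower. Between Osi_cIGF1R and Osi_Lin_EV cells, 6 of the 7 also passed, against 60.7% of all genes: IGF1R, IGF2R, IRS1, IRS2 and GRB10 were higher and IGF2 was lower. Over all genes that comparison gave 3568 higher (25.9%) and 4788 lower (34.8%). With median-of-ratios scaling it gave 4463 higher and 3669 lower, and the 7 genes had the same 6 calls. The same scaling gave 4881 higher and 4670 lower in Osi_cIGF1R against DMSO_EV cells, in place of 4563 and 4936. In Osi_Lin_EV against DMSO_EV cells it gave 3274 higher and 3827 lower, in place of 3999 and 3242. The balance of higher and lower over all genes thus depended on the scaling in every comparison. For Osi_Lin_EV against DMSO_EV cells, 4 of the 7 passed, against 52.6% of all genes (29.0% higher, 23.5% lower), with INSR higher and IGF2, IRS1 and IRS2 lower. The last count, 57.1% of the genes, is close to the background, and with 7 genes none of the counts sets them apart. Their median log2 fold change was 0.36, 0.66 and -0.09 in the comparisons as listed, beside -0.03, -0.09 and 0.05 over all genes tested. IGF1R is included in both counts of 6 and in the medians of 0.36 and 0.66. Its value in Osi_cIGF1R cells can carry reads of the overexpressed circular RNA, so its higher calls only check the overexpression label. Every pair of the comparisons shares the libraries of a group, so their results are not independent.

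**Figure D1:**
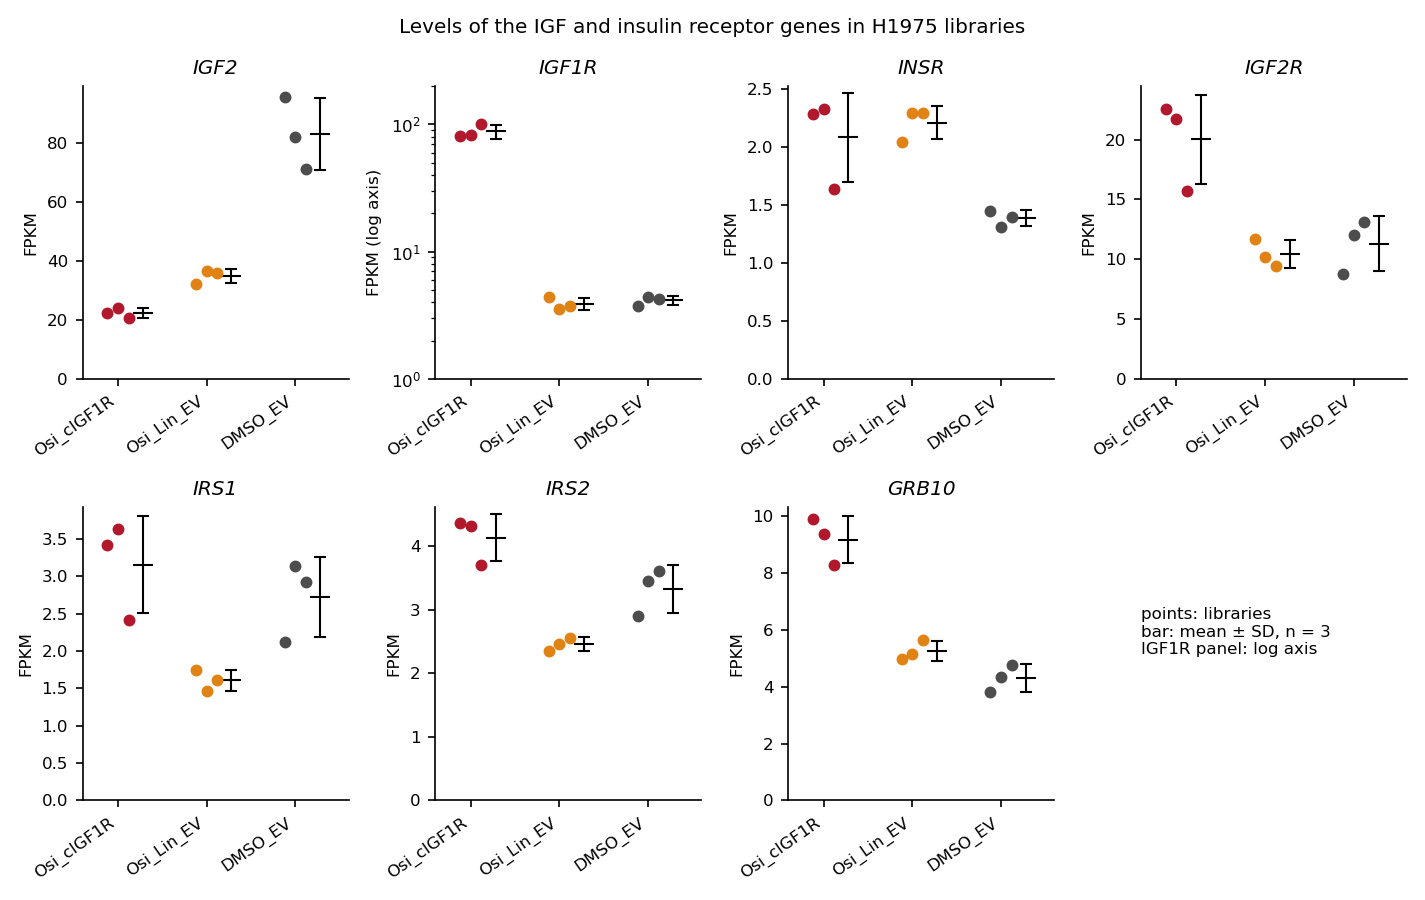
FPKM of the 7 genes in each library (points) with the group mean and SD (bars), for Osi_cIGF1R, Osi_Lin_EV and DMSO_EV from left to right, n = 3 each; the IGF1R axis is logarithmic. IGF2 steps down in both treated groups, and IGF2R, IRS2 and GRB10 are highest in the 3 Osi_cIGF1R libraries.

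IGF2, the growth factor that tumours often make themselves, was the gene that fell in both treated groups. It had 22.2, 23.9 and 20.5 FPKM in Osi_cIGF1R libraries, 32.1, 36.5 and 36.0 in Osi_Lin_EV libraries, and 95.6, 82.1 and 71.3 in DMSO_EV libraries. The 3 groups did not overlap, and Osi_cIGF1R libraries were the lowest. The mean was 22.2 ± 1.72 FPKM in Osi_cIGF1R cells, 34.9 ± 2.44 in Osi_Lin_EV cells and 83.0 ± 12.2 in DMSO_EV cells (SD, n = 3 each). On the log2 scale IGF2 fell by 1.85 in Osi_cIGF1R against DMSO_EV cells (SE 0.11, adjusted p = 7.55e-09), which is 3.74 times less FPKM. It fell by 1.22 in Osi_Lin_EV against DMSO_EV cells (SE 0.11, adjusted p = 1.2e-06), 2.38 times less. The step between Osi_cIGF1R and Osi_Lin_EV cells was itself tested and was -0.63 (adjusted p = 0.000344). In bulk libraries, fewer cells that make the transcript and less RNA per cell cannot be told apart.

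IGF2 lies on chromosome 11 at 2129117-2149566 in the RefSeq annotation of GRCh38.p14, 127850 bases from H19, at 1995176-2001266. H19 is a long noncoding RNA that is imprinted together with IGF2 and expressed from the other parental copy. H19 had 3.66, 3.94 and 3.80 FPKM in Osi_cIGF1R libraries, 5.63, 5.28 and 4.15 in Osi_Lin_EV libraries, and 16.2, 15.9 and 15.3 in DMSO_EV libraries. Both treated groups were thus below every DMSO_EV library, as for IGF2. H19 fell by 1.81 on the log2 scale in Osi_cIGF1R cells (adjusted p = 3.57e-09) and by 1.49 in Osi_Lin_EV cells (adjusted p = 6.72e-08), both against DMSO_EV cells. Between Osi_cIGF1R and Osi_Lin_EV cells the change of -0.32 had an adjusted p of 0.0163, which lay between 0.00335 and 0.0975 over the alternatives. That call was lost with median-of-ratios scaling (0.0975), without Osi_cIGF1R replicate 1 (0.0533), without Osi_Lin_EV replicate 1 (0.0852) or 2 (0.0671), and without the 2 libraries high in polymerase III RNAs (0.0720). The FPKM ratio of IGF2 to H19 was 5.84 ± 0.394 in Osi_cIGF1R, 7.10 ± 1.5 in Osi_Lin_EV and 5.23 ± 0.623 in DMSO_EV libraries (SD, n = 3), and the ranges of the 3 groups overlapped.

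Of the other genes listed around IGF2, HMGA2, a chromatin protein known to promote transcription of IGF2, also fell. Its mean was 5.03 ± 0.37 FPKM in Osi_cIGF1R, 4.73 ± 0.174 in Osi_Lin_EV and 16.1 ± 3.39 in DMSO_EV cells, a log2 change of -1.49 (adjusted p = 1.97e-07) and -1.56 (adjusted p = 3.13e-07) against DMSO_EV. IGF2BP1, IGF2BP2 and IGF2BP3, which bind the IGF2 mRNA, passed in 0 of the 3 comparisons. Without Osi_cIGF1R replicate 3, the number of called genes in this list of 5 tested genes went to 5, against 2 with it, in Osi_cIGF1R against DMSO_EV cells. IGF2-AS, which overlaps IGF2 on the opposite strand, averaged 0.619 ± 0.112 FPKM in Osi_cIGF1R, 0.519 ± 0.215 in Osi_Lin_EV and 1.15 ± 0.34 in DMSO_EV cells and was below the filter. Whether counting used the strand is not given in the sources used here, so reads of IGF2 and IGF2-AS cannot be told apart. IGF1, the other IGF ligand, the insulin gene INS and the related receptor INSRR were also below the filter, so 0 of 3 could be tested.

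IGF1R, the receptor for IGF1 and IGF2, spans 15:98648539-98964530. It had 81.4, 82.3 and 101 FPKM in Osi_cIGF1R libraries, 4.41, 3.56 and 3.73 in Osi_Lin_EV libraries and 3.76, 4.41 and 4.23 in DMSO_EV libraries. Every Osi_cIGF1R library was far above both other groups, which overlapped. The difference was 4.11 on the log2 scale against DMSO_EV cells (SE 0.11, adjusted p = 1.52e-12), 21.3 times the FPKM, and 4.18 against Osi_Lin_EV cells (adjusted p = 1.77e-12). A circular RNA of IGF1R shares its sequence with IGF1R exons, and the table gives 1 value per gene. Reads of the overexpressed circular RNA and of the cell's own IGF1R mRNA therefore cannot be told apart here, and the value checks the overexpression label without giving the level of the mRNA. Between Osi_Lin_EV and DMSO_EV cells, where both carried EV, the change was -0.07 with a 95% interval of -0.30 to 0.16 (adjusted p = 0.616). IRAIN, a noncoding RNA that overlaps the start of IGF1R, averaged 0.0117 FPKM in Osi_cIGF1R, 0.0243 in Osi_Lin_EV and 0.0464 in DMSO_EV cells and was not tested.

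INSR, the insulin receptor, at 19:7112265-7294414, was higher in both treated groups than in DMSO_EV cells. It had 2.28, 2.33 and 1.64 FPKM in Osi_cIGF1R libraries, 2.05, 2.30 and 2.29 in Osi_Lin_EV libraries and 1.45, 1.31 and 1.40 in DMSO_EV libraries. Every treated library lay above every DMSO_EV library, and the treated groups overlapped. The log2 change was 0.36 in Osi_cIGF1R against DMSO_EV cells (adjusted p = 0.00838), 1.51 times the FPKM, and the adjusted p was 0.0988 without the 2 libraries high in polymerase III RNAs. It was 0.43 in Osi_Lin_EV against DMSO_EV cells (SE 0.11, adjusted p = 0.0044), 1.60 times the FPKM. Between Osi_cIGF1R and Osi_Lin_EV cells it was -0.07, with a 95% interval of -0.30 to 0.17 (adjusted p = 0.619).

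Since linsitinib acts on both kinases, the balance of the receptors was also read within each library. The FPKM ratio of INSR to IGF1R was 0.465, 0.645 and 0.614 in Osi_Lin_EV libraries, against 0.386, 0.298 and 0.330 in DMSO_EV libraries. These groups did not overlap, and an exact permutation test of 3 against 3 libraries cannot give a two-sided p below 0.1. In Osi_cIGF1R libraries the ratio was 0.0242 ± 0.00687, with the reads of the construct in its denominator.

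IGF2R, at 6:159969082-160111504, removes IGF2 from the cell surface. It had 22.6, 21.7 and 15.7 FPKM in Osi_cIGF1R libraries, 11.7, 10.2 and 9.42 in Osi_Lin_EV libraries and 8.73, 12.04 and 13.1 in DMSO_EV libraries. The 3 Osi_cIGF1R libraries were above all others, and Osi_Lin_EV and DMSO_EV libraries overlapped. IGF2R was higher in Osi_cIGF1R cells by 0.77 against DMSO_EV cells (SE 0.16, adjusted p = 0.000632) and by 0.87 against Osi_Lin_EV cells (adjusted p = 0.000367), 1.77 and 1.92 times the FPKM. In Osi_Lin_EV against DMSO_EV cells the change was -0.09, with a 95% interval of -0.43 to 0.24 (adjusted p = 0.635).

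With IGF2 lower and IGF2R higher, the ratio of ligand to clearance receptor differed most between Osi_cIGF1R and DMSO_EV libraries. There were 0.985, 1.10 and 1.30 FPKM of IGF2 per FPKM of IGF2R in Osi_cIGF1R libraries. Osi_Lin_EV libraries had 2.75, 3.58 and 3.82, and DMSO_EV libraries had 10.9, 6.82 and 5.43. No group overlapped another. The smallest exact two-sided p that 3 libraries against 3 allow is 0.1, so the ratio is given as a description. Its order follows from the levels of IGF2 and IGF2R given above, and it is no separate support for them. DMSO_EV replicate 1, which has the highest ratio, also had the highest mitochondrial share, 30.4%, whose part in the ratio was not tested.

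**Figure D2:**
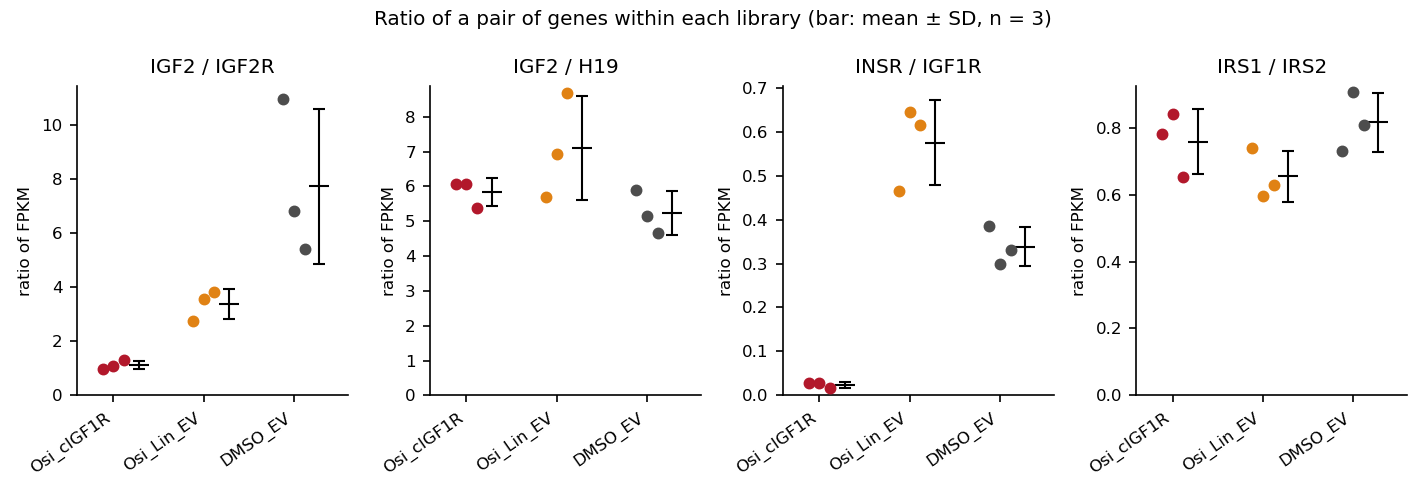
Ratios of FPKM within each library (points) with the group mean (bars), for Osi_cIGF1R, Osi_Lin_EV and DMSO_EV from left to right, n = 3 each. IGF2 over IGF2R lies at 0.985 to 1.30 in Osi_cIGF1R, 2.75 to 3.82 in Osi_Lin_EV and 5.43 to 10.9 in DMSO_EV libraries.

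Genes listed around the mannose 6-phosphate route, which tags proteins for IGF2R and for its smaller relative M6PR, were set beside it. The list also holds TGFB1, PLAUR and SORT1, which do not make the tag. Of 8 tested, IGF2R included, 6 were higher and 0 lower in Osi_cIGF1R against DMSO_EV cells, with a median log2 change of 0.43. The called share of the list, 75.0%, stood beside 69.0% of all genes. It was 62.5% beside 60.7% between Osi_cIGF1R and Osi_Lin_EV cells and 62.5% beside 52.6% between Osi_Lin_EV and DMSO_EV cells. GNPTAB, which makes the tag, rose by 0.51 (4.41 ± 0.795 against 2.77 ± 0.234 FPKM, SD, n = 3) and TGFB1, whose precursor binds IGF2R, rose by 0.46. Against Osi_Lin_EV cells 4 were higher and 1 lower (median 0.26). Without Osi_cIGF1R replicate 2, Osi_Lin_EV replicate 2 or Osi_Lin_EV replicate 3, 3 were called in place of 5. PLAUR, the urokinase receptor, differed by 1.31 (45.0 ± 8.40 in Osi_cIGF1R against 17.4 ± 0.32 FPKM in Osi_Lin_EV cells) and M6PR by 0.65 (31.3 ± 1.08 against 19.7 ± 2.15 FPKM). Between Osi_Lin_EV and DMSO_EV cells 3 were higher and 2 lower in Osi_Lin_EV (median 0.22). GNPTG changed by 0.61, TGFB1 by 0.40 and PLAUR by -0.91. That count of 5 was 3 without DMSO_EV replicate 2, without Osi_Lin_EV replicate 3, and without the 2 libraries high in polymerase III RNAs.

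IRS1 and IRS2 dock on the activated receptors and recruit PI3K. Both were lower in Osi_Lin_EV cells than in either other group. IRS1, at 2:226731312-226799820, had 3.41, 3.64 and 2.42 FPKM in Osi_cIGF1R libraries, 1.74, 1.47 and 1.61 in Osi_Lin_EV libraries and 2.12, 3.14 and 2.92 in DMSO_EV libraries. The 3 Osi_Lin_EV libraries were below the other 6, and Osi_cIGF1R and DMSO_EV libraries overlapped. IRS1 changed by -0.51 in Osi_Lin_EV against DMSO_EV cells (SE 0.14, adjusted p = 0.00665), 0.589 times the FPKM. It was 0.66 higher in Osi_cIGF1R than in Osi_Lin_EV cells (adjusted p = 0.000924), 1.97 times the FPKM. Between Osi_cIGF1R and DMSO_EV cells the difference was 0.16, with a 95% interval of -0.14 to 0.45 (adjusted p = 0.321).

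IRS2, at 13:109752695-109786583, had 4.36, 4.32 and 3.71 FPKM in Osi_cIGF1R libraries, 2.35, 2.46 and 2.56 in Osi_Lin_EV libraries and 2.90, 3.46 and 3.61 in DMSO_EV libraries. None of the 3 groups overlapped. IRS2 differed by 0.57 between Osi_cIGF1R and Osi_Lin_EV cells (adjusted p = 0.000311), 1.68 times the FPKM. The change of 0.25 in Osi_cIGF1R against DMSO_EV cells (adjusted p = 0.0414) missed the threshold under 11 of the 19 alternatives, with an adjusted p of 0.0172 to 0.154 over them and of 0.154 without the 2 libraries high in polymerase III RNAs. The change of -0.32 in Osi_Lin_EV against DMSO_EV cells (SE 0.10, adjusted p = 0.0169) missed it without DMSO_EV replicate 2 (0.0563) or 3 (0.0544), without Osi_Lin_EV replicate 1 (0.0596) and without the 2 libraries high in polymerase III RNAs (0.0748). The FPKM ratio of IRS1 to IRS2 was 0.759 ± 0.0963 in Osi_cIGF1R, 0.655 ± 0.0757 in Osi_Lin_EV and 0.816 ± 0.0891 in DMSO_EV libraries (SD, n = 3), and the ranges of neighbouring groups overlapped. Per FPKM of INSR there were 2.01 ± 0.218 FPKM of IRS2 in Osi_cIGF1R, 1.11 ± 0.0382 in Osi_Lin_EV and 2.41 ± 0.354 in DMSO_EV libraries, the lowest ratio in the group where INSR rose and IRS2 fell.

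INSR and the IRS genes moved in opposite directions in Osi_Lin_EV cells, and the stretch of 250 bases before the first listed start of each gene is shown here. FOXO proteins are known to raise INSR and IRS2 transcription when insulin signalling is low, which is why these stretches were read. IRS2 fell in Osi_Lin_EV cells, and whether FOXO proteins had a part in these changes was not tested. Sequences are from RefSeq on GRCh38.p14, 5′ to 3′ on the strand of the gene, with matches to the GC box GGGCGG on either strand and to CAAAACA, the core of an insulin response element, on either strand in capitals. INSR is at chr19:7294415-7294664, IRS1 at chr2:226799821-226800070 and IRS2 at chr13:109786584-109786833, all on the minus strand.
INSR: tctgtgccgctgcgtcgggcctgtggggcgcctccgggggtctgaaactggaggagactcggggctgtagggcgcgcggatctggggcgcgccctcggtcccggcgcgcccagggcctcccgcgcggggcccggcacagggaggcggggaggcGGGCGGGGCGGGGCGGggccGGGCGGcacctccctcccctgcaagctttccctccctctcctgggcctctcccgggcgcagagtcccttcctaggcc
IRS1: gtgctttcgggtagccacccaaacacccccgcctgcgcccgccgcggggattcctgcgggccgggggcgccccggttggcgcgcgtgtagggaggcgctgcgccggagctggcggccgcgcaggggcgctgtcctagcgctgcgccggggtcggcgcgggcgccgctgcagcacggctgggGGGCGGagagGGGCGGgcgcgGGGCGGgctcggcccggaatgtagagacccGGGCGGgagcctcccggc
IRS2: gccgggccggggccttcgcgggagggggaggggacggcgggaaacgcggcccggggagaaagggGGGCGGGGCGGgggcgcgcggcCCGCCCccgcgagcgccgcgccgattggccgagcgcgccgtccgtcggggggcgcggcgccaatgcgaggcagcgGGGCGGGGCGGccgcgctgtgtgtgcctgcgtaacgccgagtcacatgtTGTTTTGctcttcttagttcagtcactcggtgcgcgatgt
CAAAACA had 1 match, in IRS2, on the opposite strand and beginning 40 bases upstream of the start, among the 6 genes of the family with an entry in the table (IGF2 had none). It occurs in 4.30% of the 35116 promoters of that length. GTAAACA, the FOXO consensus core, occurs in 2.98% of promoters and had 0 matches in the windows of the 6 genes. GC boxes were found in all 6, with 4 in INSR, 4 in IRS1 and 5 in IRS2, against 42.6% of all promoters with at least 1. The G and C content was 78.4%, 80.8% and 76.4% in INSR, IRS1 and IRS2, and the median of all promoters was 58.0%. A match is a description of these letters and not a binding site, and no match says only that the letters are not in this window.

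GRB10, an adaptor that binds the activated insulin and IGF1 receptors and dampens their signal, is at 7:50590068-50793453. It had 9.90, 9.36 and 8.29 FPKM in Osi_cIGF1R libraries, 4.98, 5.15 and 5.64 in Osi_Lin_EV libraries and 3.80, 4.35 and 4.78 in DMSO_EV libraries. The groups did not overlap, and all Osi_cIGF1R libraries stood well above the rest. GRB10 rose by 0.94 in Osi_cIGF1R against DMSO_EV cells (SE 0.10, adjusted p = 2.4e-06), 2.13 times the FPKM. Against Osi_Lin_EV cells it was 0.70 higher (adjusted p = 6.38e-05), 1.75 times the FPKM. Between Osi_Lin_EV and DMSO_EV cells the difference of 0.24, with a 95% interval of 0.02 to 0.46, missed the threshold (adjusted p = 0.0643). It passed with quantile normalization (0.0466), without DMSO_EV replicate 3 (0.0321) and without Osi_cIGF1R replicate 3 (0.0414).

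**Figure D3:**
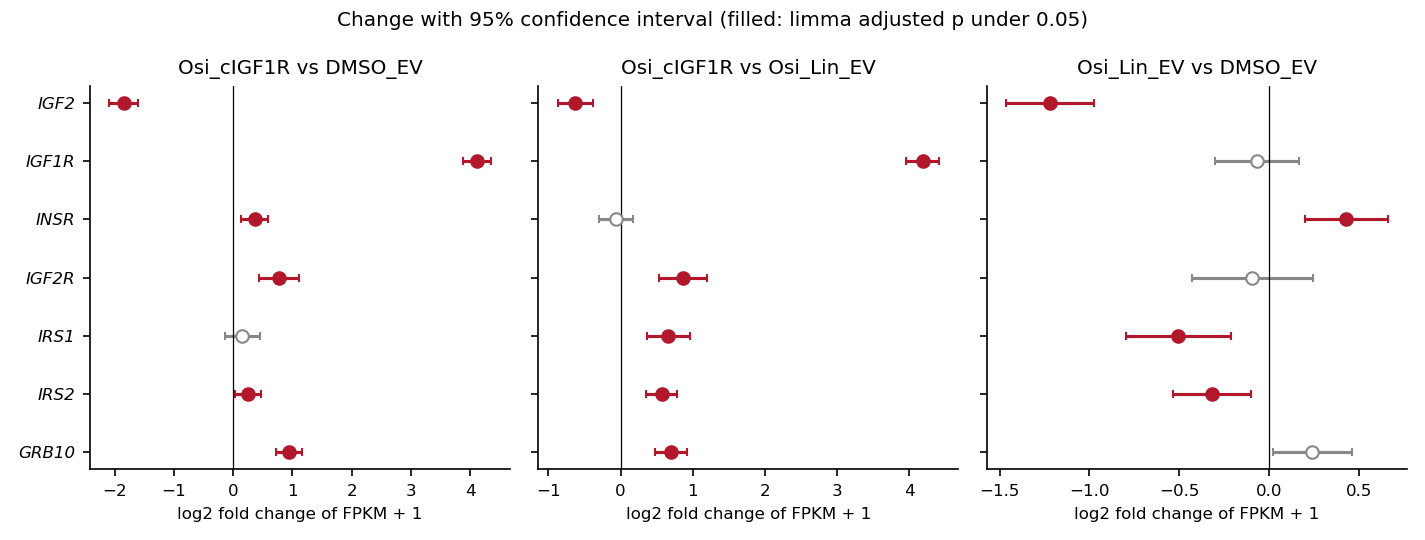
Log2 fold change of FPKM + 1 with its 95% confidence interval for each gene in the 3 comparisons, filled where the limma adjusted p was under 0.05. Osi_cIGF1R cells differ from DMSO_EV and from Osi_Lin_EV cells in the same direction for IGF2, IGF1R, IGF2R, IRS2 and GRB10, while INSR differs from DMSO_EV in both treated groups.

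The order of the levels was also compared, since FPKM is scaled to length. In Osi_cIGF1R cells the IGF1R value can carry reads of the circular RNA. The order by mean FPKM there was IGF1R, IGF2, IGF2R, GRB10, IRS2, IRS1 and INSR, and among neighbours IGF2 and IGF2R overlapped. In Osi_Lin_EV cells it was IGF2, IGF2R, GRB10, IGF1R, IRS2, INSR and IRS1, with no overlap between neighbours. In DMSO_EV cells it was IGF2, IGF2R, GRB10, IGF1R, IRS2, IRS1 and INSR, where GRB10 overlapped IGF1R and IRS2 overlapped IRS1. Thus INSR was the lowest of the 7 in Osi_cIGF1R and DMSO_EV cells, and IRS1 in Osi_Lin_EV cells. Within groups, Osi_cIGF1R replicate 3 had the lowest FPKM of its group for 6 of the 7 genes and the highest for IGF1R.

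The other adaptors and docking proteins of the receptors gave 20 tested genes of 24 listed. In Osi_cIGF1R against DMSO_EV cells 11 were higher, 2 lower and 7 did not pass (median log2 change 0.43). The called share was 65.0%, below the 69.0% of all genes, and it was 65.0% beside 60.7% against Osi_Lin_EV cells and 70.0% beside 52.6% in Osi_Lin_EV against DMSO_EV cells. SHC2 rose by 1.29, with 2.19 ± 0.27 against 0.305 ± 0.173 FPKM (SD, n = 3), SOS2, which loads RAS with GTP, rose by 1.16 and SHC3 fell by 1.69. Since SHC2 is low, its change depended on the pseudocount, with 2.59 at 0.1 and 0.44 at 5. In Osi_cIGF1R against Osi_Lin_EV cells 9 were higher, 4 lower and 7 did not pass (median 0.26). SHC1, the widely expressed SHC adaptor, was higher by 0.62, with 76.2 ± 7.89 against 49.0 ± 3.03 FPKM. CBLB, a ubiquitin ligase, changed by -0.62, and the scaffold and ribosomal protein RACK1 by -1.01. In Osi_Lin_EV against DMSO_EV cells 11 were higher, 3 lower and 6 did not pass (median 0.37), and with a filter of 5 FPKM 8 were called in place of 14. SHC2 rose by 1.01, SOS2 rose by 0.88 and SHC3 fell by 1.38, with 1.24 ± 0.123 against 4.83 ± 0.388 FPKM.

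Among 21 genes listed as brakes on the receptors and on IRS proteins, 19 were tested. SOCS1 and SOCS2, feedback inhibitors of cytokine and growth factor receptors, were higher in Osi_cIGF1R cells. SOCS1 averaged 5.16 ± 0.394 FPKM in Osi_cIGF1R, 0.906 ± 0.591 in Osi_Lin_EV and 0.516 ± 0.0281 in DMSO_EV cells, and SOCS2 averaged 6.04 ± 0.3, 2.99 ± 0.144 and 2.03 ± 0.275 FPKM in the same order. The log2 change of SOCS1 was 2.02 against DMSO_EV and 1.73 against Osi_Lin_EV cells, and that of SOCS2 was 1.22 and 0.82. With pseudocounts of 0.1 and 5 the SOCS1 change against DMSO_EV was 3.09 and 0.88. In all, 7 brakes were higher, 4 lower and 8 did not pass in Osi_cIGF1R against DMSO_EV cells (median 0.03), and 7 were called in place of 11 without the 2 libraries high in polymerase III RNAs. Against Osi_Lin_EV cells 7 were higher, 5 lower and 7 did not pass (median 0.24), with 7 called in place of 12 at a filter of 5 FPKM and 11 higher and 5 lower with median-of-ratios scaling. In Osi_Lin_EV against DMSO_EV cells 6 were higher, 5 lower and 8 did not pass (median 0.08). The called shares of 57.9%, 63.2% and 57.9% stood beside 69.0%, 60.7% and 52.6% of all genes in the order given. In Osi_Lin_EV cells TRIB3, a pseudokinase that binds AKT, fell by 1.45 (17.4 ± 1.26 against 49.2 ± 6.21 FPKM). CUL7, a subunit of a ligase for IRS1, rose by 1.10, and PTPRF, a receptor phosphatase, rose by 0.93. TRIB3 was 0.91 higher in Osi_cIGF1R than in Osi_Lin_EV cells, and PTPRF was 0.66 higher in Osi_cIGF1R than in DMSO_EV cells.

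Downstream, 29 of 30 listed genes of PI3K, AKT and mTOR were tested. In Osi_cIGF1R against DMSO_EV cells 11 were higher, 11 lower and 7 did not pass (median 0.10). FOXO4, a transcription factor that AKT holds out of the nucleus, rose by 1.86, with 12.8 ± 0.741 against 2.83 ± 0.473 FPKM. EIF4EBP1, a repressor of translation that mTOR switches off, fell by 1.84, and RPS6, a ribosomal protein, fell by 1.76, with 147 ± 26.3 against 495 ± 12.8 FPKM. In Osi_cIGF1R against Osi_Lin_EV cells 10 were higher, 9 lower and 10 did not pass (median -0.02, or 0.11 with median-of-ratios scaling). RPS6 changed by -1.56, FOXO4 by 1.15 and RICTOR, a subunit of mTOR complex 2, by 1.08. In Osi_Lin_EV against DMSO_EV cells 7 were higher, 5 lower and 17 did not pass (median -0.04). The called shares were 75.9%, 65.5% and 41.4% in that order, beside 69.0%, 60.7% and 52.6% of all genes. In Osi_Lin_EV cells EIF4EBP1 fell by 0.89, RHEB, the activator of mTOR, fell by 0.73 and FOXO4 rose by 0.71.

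Proteins that hold or release IGFs outside the cell included the largest changes of the lists. Of 12 listed genes 7 were tested. In Osi_cIGF1R against DMSO_EV cells 4 were higher, 2 lower and 1 did not pass (median 1.10). IGFBP5, an IGF-binding protein, averaged 57.0 ± 9.09 FPKM in Osi_cIGF1R, 54.2 ± 3.51 in Osi_Lin_EV and 1.86 ± 0.468 in DMSO_EV cells, and rose by 4.34 and 4.28 against DMSO_EV. IGFBP6, which binds IGF2 by preference, rose by 1.45, with 132 ± 24.6 against 47.0 ± 3.97 FPKM, and IGFBP3 rose by 1.22. In Osi_cIGF1R against Osi_Lin_EV cells 5 were higher, 0 lower and 2 did not pass (median 0.86). IGFBP4 differed by 2.19 (25.4 ± 3.13 against 4.78 ± 0.841 FPKM), IGFBP6 by 1.91 and STC2, which restrains the protease of IGFBP4, by 2.04. In Osi_Lin_EV against DMSO_EV cells 2 were higher and 5 lower (median -0.46). The called shares of 85.7%, 71.4% and 100% rest on 7 genes and stand beside the same 69.0%, 60.7% and 52.6%. Among the genes lower in Osi_Lin_EV cells were STC2, which fell by 2.31, and IGFBP4, which fell by 1.10.

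**Figure D4:**
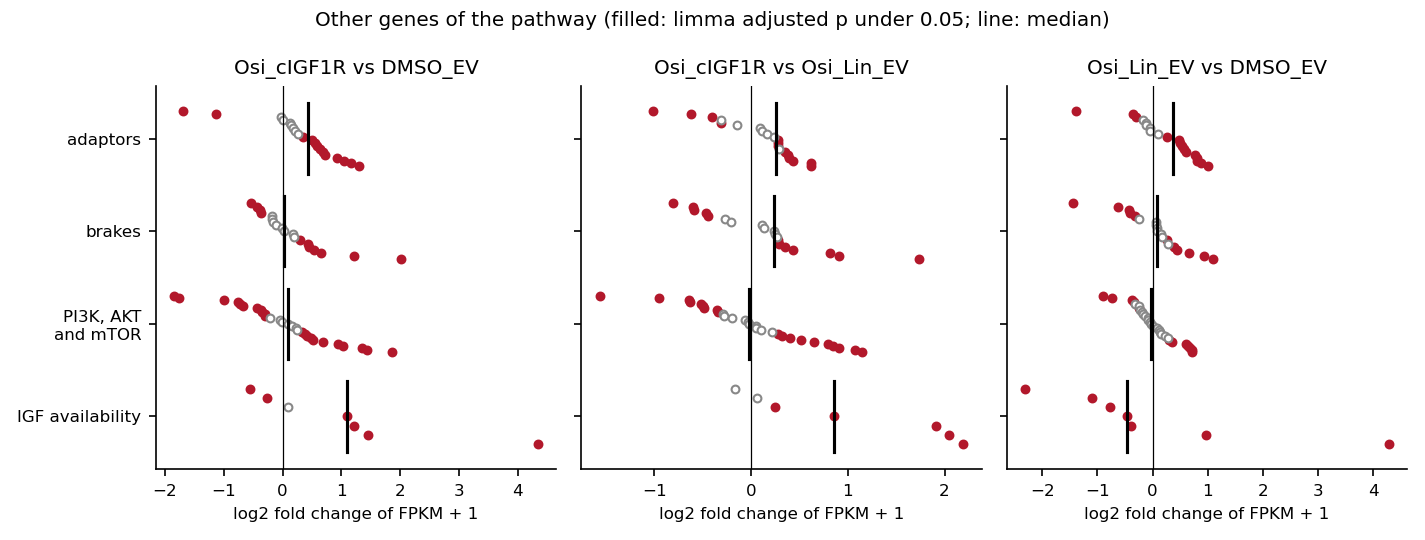
Tested genes of each list in the 3 comparisons, by direction of change and by call (limma adjusted p under 0.05). In Osi_cIGF1R against DMSO_EV cells, 11 of 29 PI3K, AKT and mTOR genes were called higher and 11 lower. In Osi_Lin_EV against DMSO_EV cells, 2 of 7 IGF availability genes were called higher and 5 lower.

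The genes most like each of the 7 in pattern were read as Pearson's r of log2 of FPKM + 1 over the 9 libraries. Since these fall into 3 groups, a high r mostly records the same order of group means, and it is given as a description. IGF2 was most like ZNF341, EWSR1 and TROAP (r 0.992 to 0.993), and 328 of 3185 candidates had r above 0.95. GRB10 was most like EIF2AK3, a kinase of the unfolded protein response, HFE and USP25 (r 0.989 to 0.990), with 559 of 6275 above 0.95. IRS1 had fewer like genes, 19 of 7316, led by MYO10, TSPAN14 and CDCP1 (r 0.970 to 0.984). For INSR it was 22 of 8163, led by TTC17, TPCN1 and UBE3B (r 0.977 to 0.987). IRS2 was followed most closely by SPAG9, SERTAD4 and SNX9 (r 0.984 to 0.993), and IGF2R by ZDHHC9, NOMO1 and VCL (r 0.988 to 0.994). IGF1R, with its construct reads, was most like HERC5, CASP1 and USP18 (r 0.999 or above), with 244 of 660 above 0.95.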

How the data were processed

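Of 21 samples, the 9 RNA-seq libraries were used, 3 per group, and the other 12, of circular RNA, were left aside. The deposited table names no unit. Fractional values with unequal totals were read as FPKM made by the authors. Low values showed no whole-read steps, so depth is unknown, no counting interval was computed and count tests were not run. The submitters' processing notes name Bowtie2 2.1.0, STAR, edgeR and hg38 without roles. For the counter, annotation and use of strand, nothing is given in the sources used here. Per the labels' protocols, 1 extraction text with RNase R, which digests linear RNA, covers every sample, so whether these libraries had it is not settled. If they did, a level also depends on how well the linear mRNA resists the enzyme.

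From the deposited FPKM, log2(FPKM + 1) was tested with limma 3.58.1 in R 4.3.3 (trend, robust) in 1 fit over the 9 libraries. The 13775 genes with at least 1 FPKM in at least 3 libraries were tested, with Benjamini-Hochberg adjustment and a threshold of 0.05. Fold changes on this scale understate those of low genes. Times the FPKM is the plain ratio of group means. The 7 genes and the lists were chosen with earlier results of these data known. From each list, up to 3 called genes with the largest change per comparison were named. On simulated data, limma recovered 93, 99 and 98 of 100 genes changed by 1 (Osi_Lin_EV with DMSO_EV, Osi_cIGF1R with DMSO_EV, Osi_cIGF1R with Osi_Lin_EV). These covered 12810, 12815 and 12807 genes, and 8 of 201, 9 of 207 and 9 of 207 calls were false. There 100 genes were changed by 1 and 100 by 2, a far smaller share than was called in the real data. The simulation therefore does not give the rate of false calls among the real ones. Alternatives were median-of-ratios scaling, quantile normalization, equal totals without mitochondrial genes, no filter, a filter of 5 FPKM, pseudocounts of 0.1 and 5, no trend, only the groups compared, a replicate block and leaving out each library. Leaving out the 2 libraries high in polymerase III RNAs was chosen after seeing the data. Of the ratios within a library, only that of INSR to IGF1R was in the plan. Positions and sequences are RefSeq's. Figures were made with matplotlib 3.10.9 in Python 3.11.15.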

Additional observations from a re-analysis of the deposited data

How the results depend on the processing

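Of 411 values of the 7 genes under alternatives, 389 kept direction and side of the threshold, 16 missed a threshold they had passed, 3 passed one they had missed and 3 changed sign. The sign changes concerned differences that did not pass: IGF2R in Osi_Lin_EV against DMSO_EV cells was 0.0161 without DMSO_EV replicate 3 (-0.25 to 0.0161 over single libraries left out), and INSR in Osi_cIGF1R against Osi_Lin_EV cells was 0.0303 with median-of-ratios scaling and 0.0427 without Osi_cIGF1R replicate 3 (-0.125 to 0.0427). A filter of 5 FPKM left 4 of the 7 genes tested, without INSR, IRS1 and IRS2, and 1 called in Osi_Lin_EV against DMSO_EV cells. With a pseudocount of 1 the mean ratio of INSR to IGF1R was 0.0353 in Osi_cIGF1R, 0.661 in Osi_Lin_EV and 0.467 in DMSO_EV libraries. Leaving out 1 library gave 8516 to 9325 called genes and 5 to 6 of the 7 in Osi_cIGF1R against DMSO_EV cells, 7130 to 8513 and 6 against Osi_Lin_EV cells, and 6137 to 7775 and 3 to 5 in Osi_Lin_EV against DMSO_EV cells. Without both libraries high in polymerase III RNAs 4, 6 and 3 of the 7 were called in the same order. Where 1 library was left out, the spread was pooled over groups. Same-numbered libraries did not deviate together (correlations of -0.315 to 0.0358, beside -0.155 to 0.329 for differently numbered ones). Deviations from a mean of 3 libraries cannot exclude a pairing, and the main test used none. With a replicate block 9204, 7963 and 6838 genes were called and 5, 6 and 4 of the 7, with IRS2 against DMSO_EV lost in Osi_cIGF1R cells (adjusted p = 0.0699). Median-of-ratios scaling shifted the log2 fold changes of single genes by a median of 0.05, 0.12 and -0.08 in that order. For low genes among the 7, a pseudocount of 5 reduced the sizes by over 1.5 times, and 0.1 raised them by less. With 0.1 and 5, the INSR change in Osi_Lin_EV against DMSO_EV cells was 0.64 and 0.18. That of IRS1 was -0.71 and -0.22, that of IRS2 -0.42 and -0.16, and that of GRB10 0.29 and 0.14. In Osi_cIGF1R against DMSO_EV cells INSR changed by 0.54 and 0.15, IRS2 by 0.31 and 0.13 and GRB10 by 1.08 and 0.61, and in Osi_cIGF1R against Osi_Lin_EV cells IRS1 by 0.92 and 0.30, IRS2 by 0.72 and 0.29 and GRB10 by 0.79 and 0.47. Among the listed genes named, a pseudocount of 5 also reduced by over 1.5 times the changes of SHC2, SHC3, SOS2, CBLB, SOCS1, SOCS2, FOXO4, H19 and GNPTAB, with their calls kept. Of the genes around IGF2, 0 or 4 were called between Osi_cIGF1R and Osi_Lin_EV cells in place of 1 when single libraries were left out, 4 without Osi_cIGF1R replicate 3. The cause of these changes was not tested. Unknown depth limits what can be said of IRAIN, IGF2-AS and other genes below 1 FPKM.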
